A study of Mus musculus with 10 samples.

Results

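Superoxide and hydrogen peroxide are made in every respiring cell, and a short list of enzymes removes them. Superoxide dismutases turn superoxide into hydrogen peroxide, and catalase, glutathione peroxidases and peroxiredoxins then reduce the peroxide. The enzymes are set apart by place. Sod1 works in the cytosol, Sod2 in the mitochondrial matrix and Sod3 outside the cell, catalase (Cat) works in peroxisomes, and Gpx3 is a glutathione peroxidase that the kidney tubule secretes into plasma. Gpx3, Gpx1, Gpx4, Sod1, Sod2, Sod3, Cat, Prdx1, Prdx3 and Prdx5 were chosen by symbol for their known function, with earlier results of these data known. They are 10 of the 43629 genes listed in the count table, and 9 of them are among the 10055 genes with enough reads to be tested.

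The genes were measured in kidneys of 4-month-old male UM-HET3 mice, a genetically mixed stock bred by crossing inbred strains, in which every mouse is genetically different. The control group, 6 mice, ate the Purina 5LG6 diet. The treated group, 4 littermates by the series description, ate the same diet with rilmenidine, a blood pressure drug that binds imidazoline receptors, at 10 ppm from 3 months of age for 1 month. Each library comes from 1 mouse and carries its 3′ transcript ends, and held 863605 to 2559118 counts in the control group and 1813465 to 3232063 counts in the rilmenidine group. Levels are given as normalized CPM, counts scaled to a common library total after RLE adjustment. The description of the extraction speaks of liver, so the labelled tissue was compared with its markers. Kap, an androgen-regulated proximal tubule gene, stood at 38675 ± 5361 CPM (SD, n = 6) in the control kidneys, and the proximal tubule phosphate transporter Slc34a1 at 5926 ± 769 CPM, whereas the liver secretory gene Alb stood at 4.39 ± 3.98 CPM and Apoa1 had at most 4 counts in any library. Among the 5 liver markers the most abundant was Ttr, at 546 ± 184 CPM.

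Gpx3, Gpx1 and Gpx4 are selenoproteins. Their catalytic residue is selenocysteine, which is read from a TGA codon that would otherwise end the protein. The 3 codons are shown because they mark these enzymes off from the rest of the list. Each line gives 12 bases on either side of the codon from GENCODE M21 transcripts on GRCm38, all on the plus strand, with the in-frame TGA in capitals. The codon lies in a coding exon, at chr11:54907256-54907258 in Gpx3 (codon 73), chr9:108339451-108339453 in Gpx1 (codon 47) and chr10:80054737-80054739 in Gpx4 (codon 129 of the transcript Gpx4-201).
Gpx3: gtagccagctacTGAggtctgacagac
Gpx1: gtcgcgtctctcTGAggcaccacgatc
Gpx4: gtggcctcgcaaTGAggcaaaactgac
The coding sequences of Sod1, Sod2, Sod3, Cat, Prdx1, Prdx3 and Prdx5 held 0 TGA codons in frame before their stop.

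Promoters were read for a second feature. Genes of the oxidant response are often bound by Nrf2 at the antioxidant response element, whose core TGACNNNGC was searched for on both strands of the RefSeq promoter windows of GRCm38.p6, from 250 bases before to 50 bases after each start site. Of the members, 9 had a window, and Prdx1 and Sod1 held the core, beside 14.0% of the 27025 genes with a window. The match in Prdx1 lay at chr4:116685466-116685474, 133 bases before the start, and that in Sod1 at chr16:90220706-90220714, 56 bases before the start. Both read on the strand opposite to the gene, and they are written here 5′ to 3′ on that strand with the core in capitals. The letters are a description and do not show that the factor binds there.
Prdx1: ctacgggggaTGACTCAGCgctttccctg
Sod1: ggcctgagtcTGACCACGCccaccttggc

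In control kidneys the clearing enzymes were among the most abundant transcripts by their counts, with Gpx4, whose count is uncertain, as the exception. Gpx3 (ENSMUSG00000018339, chr11:54902453-54910377) held place 11 among all genes tested, at 6600.3 ± 1482 CPM (SD, n = 6). Of the raw counts of a library, before RLE scaling, Gpx3 took 0.670% ± 0.131. Prdx5, a peroxiredoxin of mitochondria, peroxisomes and cytosol, held place 26, Gpx1, the glutathione peroxidase of cytosol and mitochondria, place 33, and Prdx1, the cytosolic peroxiredoxin, place 37. Sod1, the copper and zinc enzyme, held place 89 and Cat place 104. Sod3, the secreted dismutase, stood at place 190, Sod2, the manganese enzyme, at place 361, and Prdx3, a peroxiredoxin of the mitochondrial matrix, at place 773. Thus 5 of the 9 tested members lay within the 100 most abundant genes.

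**Figure D1:**
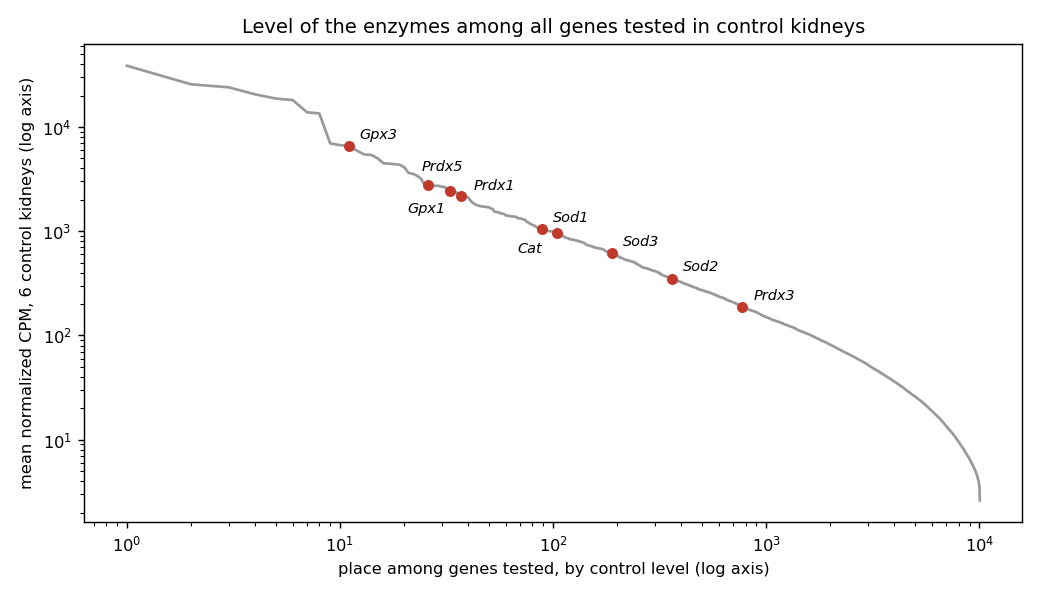
Mean normalized CPM of the 10055 genes tested in 6 control kidneys (vertical log axis) against their place from the most to the least abundant (horizontal log axis), with the 9 tested enzymes as red points. Gpx3 stands at place 11 and Prdx3, the lowest of the 9, at place 773.

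Levels of different genes were compared per kb of transcript. The length was that of the longest annotated protein-coding transcript of each gene, which need not be the form expressed in these kidneys. Gpx3 came first at 4141 ± 930 CPM per kb (SD, n = 6), above every control value of Gpx1, the next in order at 2274 ± 372 CPM per kb. Gpx1 and Prdx5 (2179 ± 422 CPM per kb) overlapped, with Gpx1 the higher in 4 of 6 control kidneys. Sod1 (1645 ± 168 CPM per kb), Prdx1 (952 ± 132) and Cat (364 ± 24.9) followed without overlap of neighbours. Sod3 (164 ± 32.8 CPM per kb) and Prdx3 (127 ± 16.3) overlapped, and Sod2 (59.8 ± 9.22) and Gpx4 (2.08 ± 2.32) came last. Of 9 pairs of neighbours 7 did not overlap between kidneys. In a library of 3′ ends a transcript is expected to count once whatever its length, so the order was also taken on the CPM without length. It then ran Gpx3, Prdx5, Gpx1, Prdx1, Sod1, Cat, Sod3, Sod2, Prdx3 and Gpx4, with 6 members in another place and 6 of 9 neighbouring pairs without overlap. On this scale Prdx1 lay above Sod1, and Sod2 above Prdx3, in all 6 control kidneys, the reverse of the order per kb. The places of these genes thus depend on the length used. Gpx3 was first and Gpx4 last on both scales, though the uncertain count of Gpx4 leaves its place in mRNA abundance open.

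Gpx4, the peroxidase that reduces lipid hydroperoxides within membranes, was nearly without counts. Its gene (ENSMUSG00000075706, chr10:80047166-80056439) had between 1 and 12 counts in a kidney and 40 in all 10, and it was not tested. The control kidneys held 0.592 CPM at the lowest, 1.27 at the median and 6.65 at the highest, and the rilmenidine kidneys 2.86, 1.61, 4.15 and 0.925 CPM. These few counts overlap between the groups and do not allow a difference to be seen. The last 300 bases of Gpx4 match the transcribed pseudogene Gpx4-ps2 (chr10:45875291-45876086) over 300 bases at 99.7% identity, and reads that align equally well to several places are often left out of gene counts. Gpx4-ps2 is not among the genes in the table used here, and how such reads were treated is not given in the sources used here. The count of Gpx4 is therefore uncertain as a measure of its mRNA.

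Under rilmenidine all 9 tested enzymes had a higher mean than under the control diet, but none passed the test across all genes. The log2 fold changes ran from 0.14 for Cat to 0.36 for Sod3, with a median of 0.28 beside 0.0021 over all genes tested. A log2 fold change above 0 was found for 50.3% of all genes and one below 0 for 49.7%. With edgeR's quasi-likelihood test and Benjamini-Hochberg adjustment over 10055 genes, the adjusted p-values of the members lay between 0.390 and 0.743. No gene of the table passed an adjusted p of 0.05, which is 0% of the genes tested. At an unadjusted p under 0.05, Gpx1, Sod1, Sod3 and Prdx1 were higher, 4 of 9 members, beside 4.43% of all genes higher, 6.13% lower and 10.6% in either direction. The members are genes of related function, chosen with earlier results of these data known. They were measured in the same kidneys, so they are not independent of one another. More cells of a type and more RNA per cell, or fewer and less, cannot be told apart in whole tissue.

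**Figure D2:**
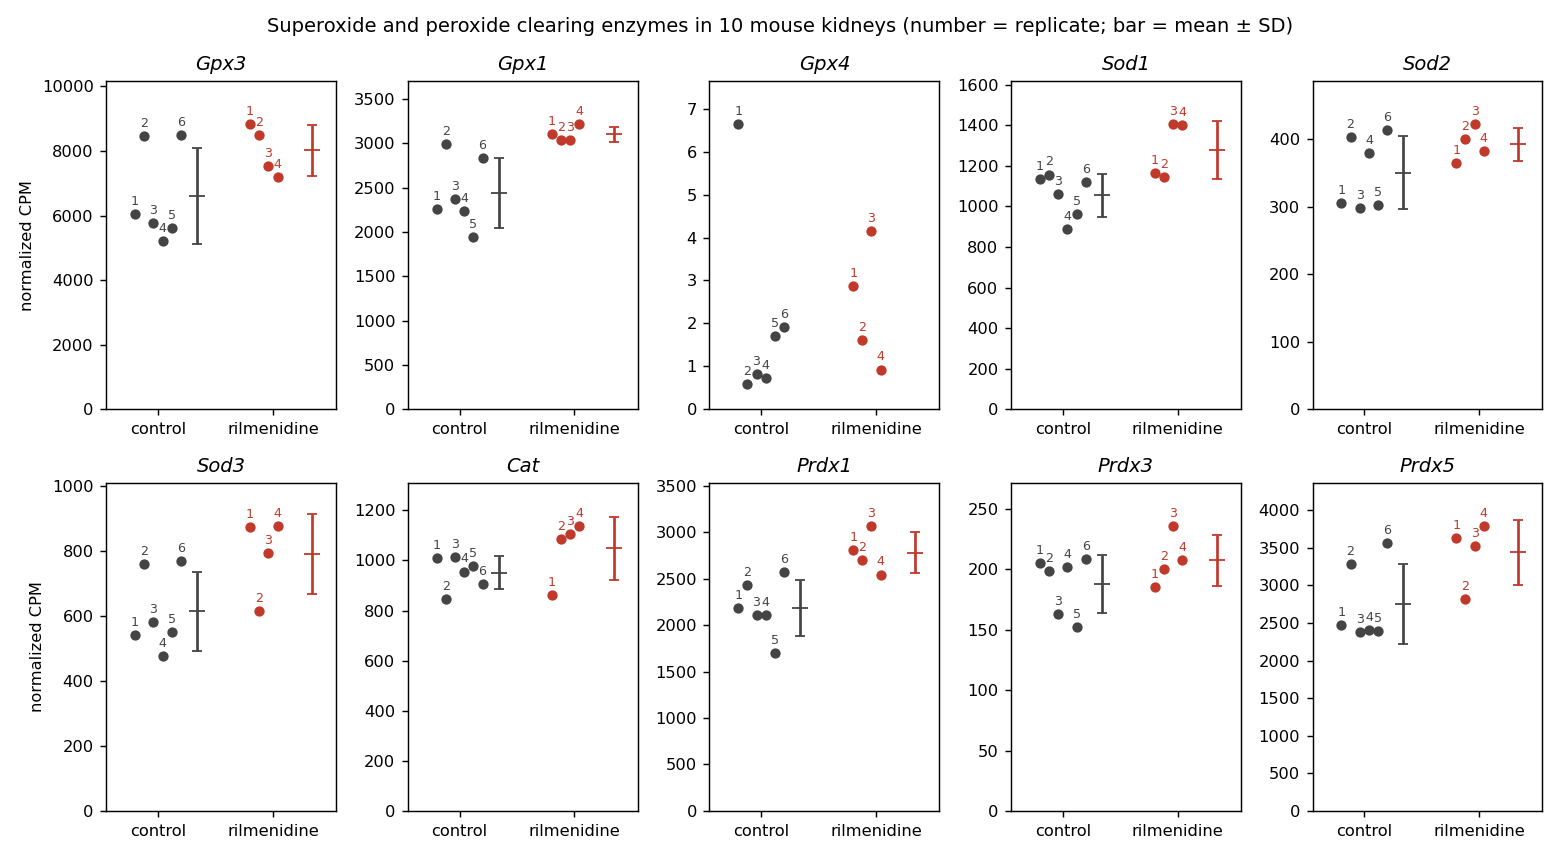
Normalized CPM (vertical axes from 0) of the 10 enzymes in each kidney, control in grey and rilmenidine in red, with the replicate number beside each point and bars for the mean and SD, left out for Gpx4. Control kidneys 2 and 6 reach the rilmenidine kidneys in Gpx3, Sod2, Sod3, Prdx3 and Prdx5, and Gpx1 is the panel in which the groups do not overlap.

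Among the superoxide dismutases, Sod3 had the largest log2 fold change in the fit to all kidneys without covariate. With library size or Malat1 as a covariate, or without rilmenidine kidney 1, that of Sod1 was larger. Sod3 (ENSMUSG00000072941, chr5:52363791-52371418) stood between 478 and 771 CPM in control kidneys with a median of 567, and at 874, 616, 794 and 879 CPM in the rilmenidine kidneys. The second rilmenidine kidney lay within the control range and the other three lay above it. Its log2 fold change was 0.36 with a standard error of 0.16 (95% interval 0.03 to 0.70), with an unadjusted p of 0.0355 and an adjusted p of 0.441 in edgeR.

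Sod1 (ENSMUSG00000022982, chr16:90220754-90226329) stood between 888 and 1157 CPM in control kidneys with a median of 1091. The rilmenidine kidneys held 1166, 1147, 1407 and 1401 CPM. Kidneys 3 and 4 of the rilmenidine group were well above all controls, while kidneys 1 and 2 lay near the highest control. Kidneys 3 and 4 are the largest libraries and also stood apart in the summed level of olfactory and vomeronasal receptor genes, at 4.27 and 7.43 CPM against 99.3 and 436 CPM in rilmenidine kidneys 1 and 2, with control kidney 6 at 8.99 CPM and the other control kidneys at 51.7 CPM or more. Without these 3 low libraries the log2 fold change of Sod1 was 0.15 with an unadjusted p of 0.391 in edgeR, and with library size as a covariate it was 0.19. Why these libraries differ in the receptor genes was not tested. The log2 fold change was 0.28 with a standard error of 0.13 (unadjusted p 0.0459, adjusted p 0.464, edgeR). A processed pseudogene, Gm8566 (chr6:67205619-67206083), shares 228 of the last 300 bases of Sod1 at 97.8% identity and had 3428 counts beside 22874 for Sod1. Its log2 fold change was 0.24, and with its counts added to those of Sod1, an alternative chosen after the data were seen, the log2 fold change was 0.28 with an unadjusted p of 0.0503 in edgeR. Sod1 also overlaps Scaf4, which lies on the opposite strand and had 179 counts.

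Sod2 (ENSMUSG00000006818, chr17:13006846-13040063) was closer between the groups. It stood between 298 and 413 CPM in control kidneys, with a median of 343, and at 364, 400, 423 and 382 CPM in the rilmenidine kidneys. Control kidneys 2, 4 and 6 were within the range of the rilmenidine kidneys. The log2 fold change was 0.16 with a standard error of 0.13 and an adjusted p of 0.703 in edgeR. The end of its transcript shares about 190 bases of repeat sequence with 6 other genes, among them Dld and Tmem245.

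Gpx1 was the one member whose groups did not overlap. Gpx1 (ENSMUSG00000063856, chr9:108338903-108340343) stood between 1937 and 2996 CPM in control kidneys with a median of 2312, and at 3105, 3034, 3038 and 3218 CPM in the rilmenidine kidneys. The gap is narrow, since control kidney 2 at 2996 CPM lay just under the lowest rilmenidine kidney. All rilmenidine kidneys lay above all controls in 0.796% of the genes tested and below them in 0.875%. The log2 fold change was 0.35 with a standard error of 0.15 (95% interval 0.04 to 0.65), with an unadjusted p of 0.0300 and an adjusted p of 0.415 in edgeR. The spread within the rilmenidine group was 85.9 CPM (SD) against 399 CPM in the control group.

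Gpx3 had a wide spread among the control kidneys, with an SD of 1482 CPM beside group means of 6600.3 and 8019 CPM. The control kidneys held 5206 CPM at the lowest, 5909 at the median and 8507 at the highest, and the rilmenidine kidneys 8842, 8503, 7525 and 7206 CPM. Control kidneys 2 and 6, at 8455 and 8507 CPM, lay within the range of the rilmenidine kidneys, and the other four, at 6054 CPM or less, lay below it. The log2 fold change was 0.28 with a standard error of 0.18 (95% interval -0.09 to 0.65), an unadjusted p of 0.128 and an adjusted p of 0.597 in edgeR. The interval takes in both a small decrease and an increase of more than the observed 1.21-fold ratio of the means.

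Cat, the peroxisomal catalase (ENSMUSG00000027187, chr2:103453849-103485160), had the smallest coefficient of variation of the members among control kidneys. It stood between 846 and 1014 CPM in control kidneys, a coefficient of variation of 6.84%, and at 861, 1085, 1105 and 1139 CPM in the rilmenidine kidneys. Control kidneys 2 and 6 were the lowest of their group for Cat, at 846 and 907 CPM, whereas they were the highest pair for 6 of the 9 tested enzymes. The log2 fold change was 0.14 with a standard error of 0.13 and an adjusted p of 0.742 in edgeR.

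The peroxiredoxins reduce peroxide with a cysteine that thioredoxin then restores. Prdx1 (ENSMUSG00000028691, chr4:116685544-116700822) stood between 1702 and 2574 CPM in control kidneys with a median of 2148, and at 2811, 2701, 3073 and 2546 CPM in the rilmenidine kidneys. The fourth rilmenidine kidney lay just below control kidney 6, and the other three were above all controls. The log2 fold change was 0.35 with a standard error of 0.14 (unadjusted p 0.0254, adjusted p 0.390, edgeR), the smallest adjusted p among the members. The end of the Prdx1 transcript matches the processed pseudogenes Gm7204 and Gm21399 over 281 bases, at 98.6% and 98.2% identity. These had 2 and 0 counts in all kidneys beside 48299 for Prdx1. Prdx5 (ENSMUSG00000024953, chr19:6906697-6910106) stood between 2384 and 3565 CPM in control kidneys with a median of 2438, and at 3628, 2817, 3526 and 3796 CPM in the rilmenidine kidneys. Control kidneys 2 and 6 again lay among the rilmenidine kidneys. Its log2 fold change was 0.32 with a standard error of 0.16 and an adjusted p of 0.499 in edgeR. Prdx3 (ENSMUSG00000024997, chr19:60864051-60874556) stood between 152 and 208 CPM in control kidneys and at 186, 201, 236 and 208 CPM in the rilmenidine kidneys, with nearly complete overlap. Its log2 fold change was 0.14 with a standard error of 0.13 and an adjusted p of 0.743 in edgeR.

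In Gpx3, Gpx1, Sod3 and Prdx5 the widest gap among the control kidneys set kidneys 2 and 6 above the rest, which was not so in the other tested enzymes. The same pair differed from the rest in Malat1, a long non-coding RNA that stays in the nucleus. The normalized CPM of the 10 enzymes together was 16167, 20540, 15741, 14864, 14592 and 20900 in control kidneys 1 to 6, and 21840, 20504, 21131 and 20776 in rilmenidine kidneys 1 to 4. Malat1 stood at 1463, 393, 1167, 1447, 2074 and 280 CPM in control kidneys 1 to 6, and at 334, 346, 302 and 389 CPM in rilmenidine kidneys 1 to 4. Control kidneys 2 and 6 thus had the low Malat1 and the high enzyme total of the rilmenidine kidneys, and control kidneys 1, 3, 4 and 5 had high Malat1 and the 4 lowest enzyme totals. The group means of Malat1 were 1137 ± 688 and 343 ± 35.7 CPM (two-sided exact permutation test over 210 splits, p = 0.0857, adjusted p = 0.279 over 13 values of the libraries). No correlation is given, because the kidneys form separate clusters.

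**Figure D3:**
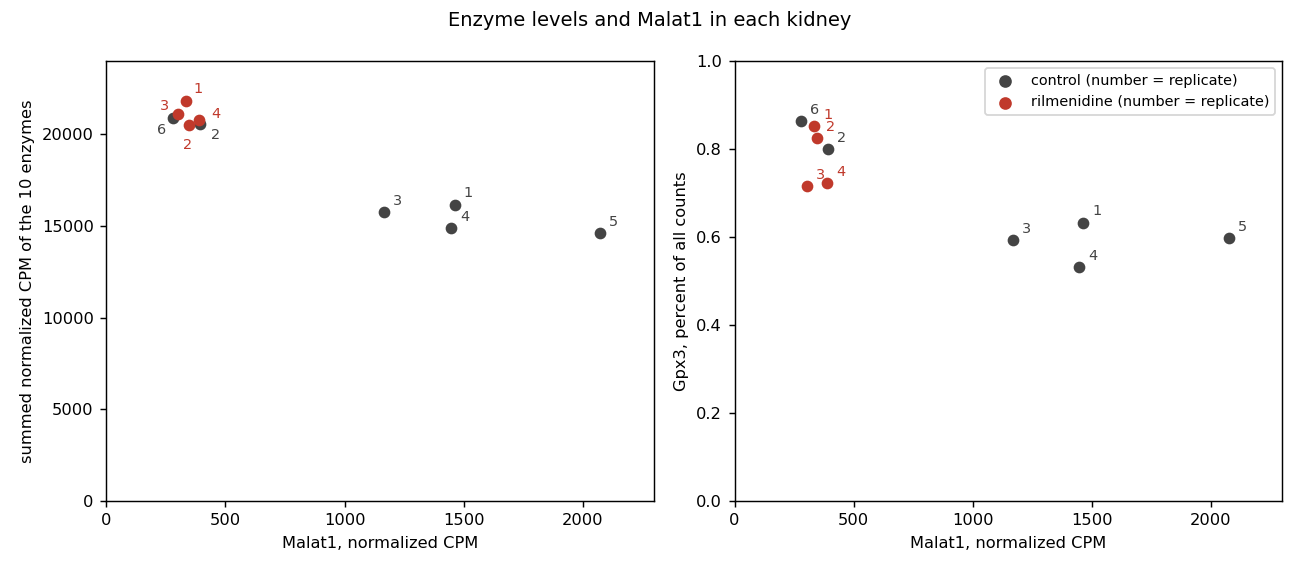
Summed normalized CPM of the 10 enzymes (left) and Gpx3 as a percent of all counts (right) against Malat1 in normalized CPM in each of the 10 kidneys, control in grey and rilmenidine in red, with the replicate number beside each point. Control kidneys 2 and 6 sit with the rilmenidine kidneys at low Malat1, and control kidneys 1, 3, 4 and 5 sit apart at 1167 CPM or more.

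With the log2 CPM of Malat1 as a covariate in edgeR, Gpx3 differed by -0.048 on the log2 scale (unadjusted p 0.759) and Sod2 by -0.043, so that both turned direction. Gpx1 went from 0.35 to 0.10, Prdx5 from 0.32 to 0.04, Sod3 from 0.36 to 0.08 and Prdx1 from 0.35 to 0.13. Sod1 went from 0.28 to 0.17, Prdx3 from 0.14 to 0.016 and Cat from 0.14 to 0.24. None of the 9 had an unadjusted p under 0.05 in that fit, and their median was 0.08. Malat1 itself had a log2 fold change of -1.73 between the groups with an adjusted p of 0.211 in edgeR, so such a fit may also take away part of any difference between the diets. Why Malat1 differs between these kidneys was not tested.

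Summed markers of the thick ascending limb and of collecting duct principal cells also differed between the groups at an unadjusted p under 0.05, and not after adjustment. The 4 thick ascending limb markers summed to 1464 ± 234 CPM in control kidneys and 2050.0 ± 434 CPM in rilmenidine kidneys (exact permutation p = 0.0476, adjusted p = 0.279), with Umod, the most abundant, at 1062 and 1622 CPM. Umod made most of that difference, since the salt transporter gene Slc12a1 stood at 191 and 200.1 CPM and the potassium channel gene Kcnj1 at 208 and 220 CPM, with log2 fold changes of 0.08 and 0.07. By kidney the sums were 1893, 1277, 1572, 1361, 1309 and 1374 CPM under control diet and 1849, 1540, 2328 and 2483 CPM under rilmenidine. The 4 principal cell markers of the collecting duct summed to 210 ± 35.5 and 263 ± 21.7 CPM (exact permutation p = 0.0381, adjusted p = 0.279), with Aqp2 at 67.4 and 100.4 CPM and Hsd11b2 the most abundant in control kidneys at 77.1 CPM. Of these markers Umod, Aqp2 and Aqp3 were higher at an unadjusted p under 0.05 in edgeR, and Cldn16 was not tested. The distal convoluted tubule markers Slc12a3 and Trpm6 were lower at an unadjusted p under 0.05 in edgeR, with log2 fold changes of -0.55 and -1.01, and their list of 3 summed to 260.1 ± 59.1 and 192 ± 55.2 CPM (exact permutation p = 0.133). The proximal tubule markers, which include Kap, summed to 54132 ± 5216 and 61076 ± 10966 CPM (exact permutation p = 0.219), and 3 of these 9 markers were higher and 6 lower. The blood, immune, endothelial, podocyte, intercalated cell and liver markers gave exact permutation p-values of 0.571 or more. The part of these cell types in the enzyme levels was not tested.

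The other genes of the pathway were more spread. Of 46 further genes, 38 were tested, and 29 of them had a log2 fold change above 0, with a median of 0.13. At an unadjusted p under 0.05 there were 4 higher and 1 lower, beside the 4.43% higher and 6.13% lower of all genes tested, and none passed after adjustment in edgeR.

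Among other peroxiredoxins and glutathione peroxidases, 5 of 8 were tested and all 5 were higher, with a median log2 fold change of 0.43. Prdx2, abundant in red cells and present in the cytosol of most cells, stood at 99.9 ± 18.8 CPM in control and 136 ± 20.6 CPM in rilmenidine kidneys (log2 fold change 0.43, unadjusted p 0.0111, adjusted p 0.321, edgeR). Prdx4, the peroxiredoxin of the endoplasmic reticulum, stood at 32.7 ± 7.06 and 45.1 ± 9.90 CPM (log2 fold change 0.44, unadjusted p 0.0316, edgeR). The highest value, 0.54, was that of the low gene Gpx6, and the lowest, 0.10, that of Prdx6. Gpx2, Gpx5 and Gpx7 had at most 7 counts in a kidney and were not tested.

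The thioredoxin and glutathione systems restore the peroxidases. Of these 12 genes, which include Ccs, the chaperone that gives Sod1 its copper, 11 were tested and 9 were higher, with a median of 0.20. Txn1, the cytosolic thioredoxin, stood at 594 ± 67.6 CPM in control and 739 ± 49.5 CPM in rilmenidine kidneys (log2 fold change 0.31, unadjusted p 0.0212, adjusted p 0.371, edgeR). Gss, the last enzyme of glutathione synthesis, had the highest log2 fold change, 0.40 (unadjusted p 0.0491, edgeR), and Srxn1, which repairs overoxidized peroxiredoxins, the lowest, -0.03. Txnrd2 is listed with 0 counts in all 10 kidneys, and whether this reflects its mRNA or the counting was not tested.

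NADPH is the reducing power of both systems, and its supply has a list of its own. All 6 were tested, 5 were higher and none had an unadjusted p under 0.05 in edgeR, with a median of 0.16, from 0.29 for Me1, malic enzyme, to -0.13 for Nnt, the mitochondrial transhydrogenase.

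Genes that make selenoproteins or supply selenium had log2 fold changes on both sides of 0. Of 8 genes 6 were tested, 2 were higher and 4 lower, and the median was -0.02. Sepsecs, which makes the selenocysteine on its tRNA, was lower at 50.1 ± 10.1 against 37.0 ± 9.12 CPM (log2 fold change -0.42, unadjusted p 0.0396, adjusted p 0.444, edgeR). Eefsec, the elongation factor for selenocysteine, was the highest of the list at 0.22. Selenop, the plasma selenium carrier, stood at 4448 ± 1095 and 4361 ± 596 CPM.

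Of 12 oxidases and their subunits that make superoxide or hydrogen peroxide, 10 were tested and 8 were higher, with a median of 0.11 and none at an unadjusted p under 0.05 in edgeR. The highest was Maoa, a monoamine oxidase of low level here, at 0.50, and the lowest Ddo, the peroxisomal D-aspartate oxidase, at -0.34.

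**Figure D4:**
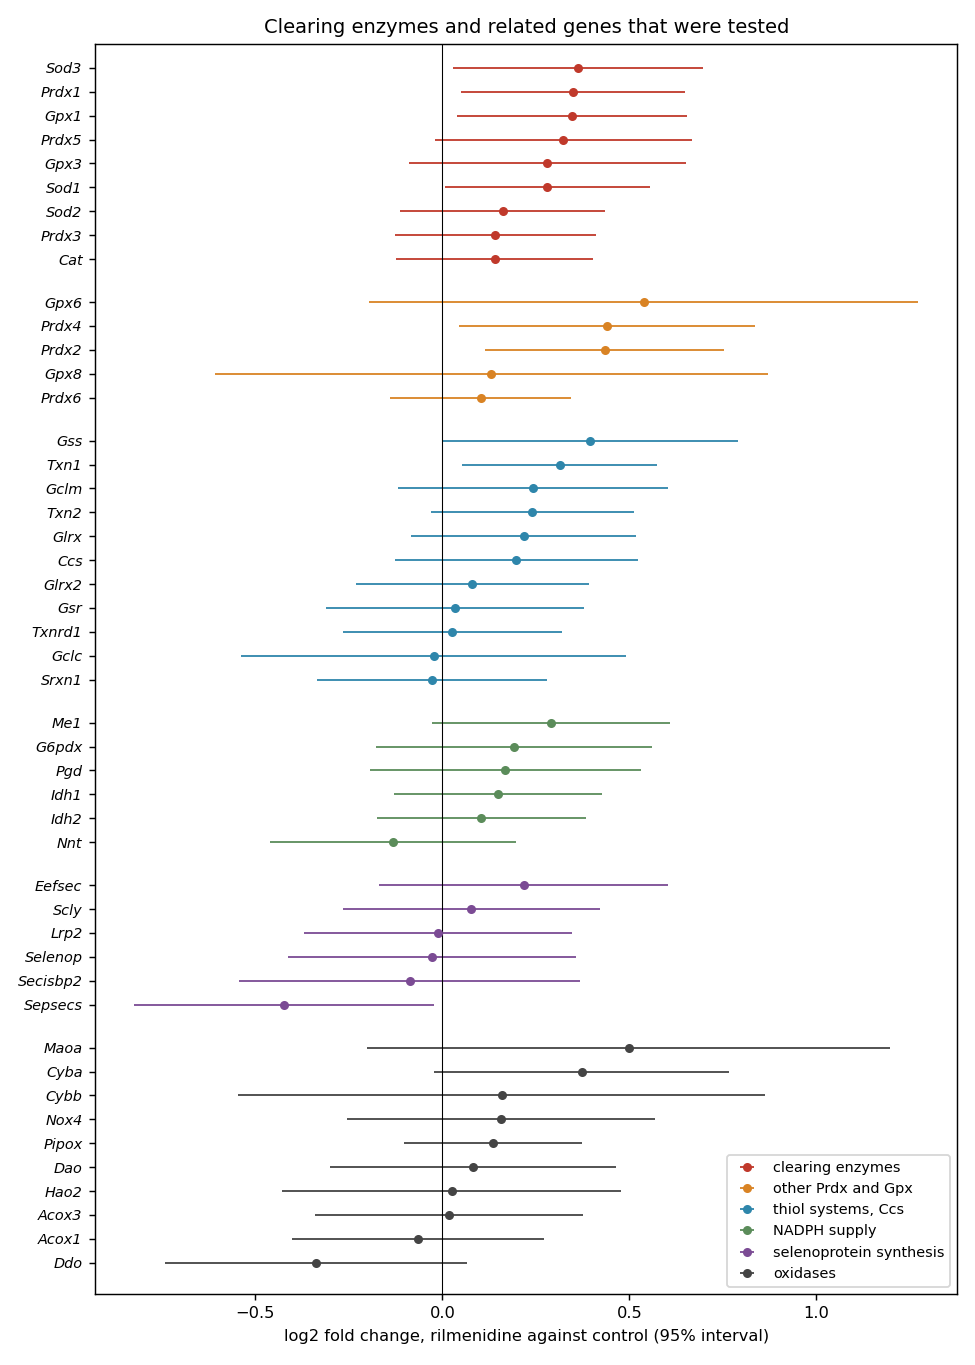
Log2 fold change of rilmenidine against control kidneys (horizontal axis) with its 95% interval for the 9 tested enzymes, in red, and the 38 tested genes of related lists, in other colours. All 9 enzymes lie above 0, from 0.14 to 0.36, and the selenoprotein synthesis genes have a median of -0.02.

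The genes most like Gpx3 over the 10 kidneys, by the root mean square difference of centred log2 CPM, were Bscl2 at 0.0864, Cox4i1 at 0.0893 and Emc10 at 0.0965, beside a median of 0.424 over the genes tested. Cox4i1, a subunit of cytochrome c oxidase, stood at 863 ± 164 CPM in control and 1086 ± 64.6 CPM in rilmenidine kidneys. Among the members Gpx1 was the nearest to Gpx3 with a difference of 0.139, at place 67, followed by Prdx5 (0.168) and Prdx1 (0.170). Cat was the farthest at 0.338 and place 2968. Of the 9 tested members the median coefficient of variation among control kidneys was 15.4%, beside 14.4% for the 773 genes at least as abundant, and Gpx3 had the largest, 22.5%.

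The choice of the fit changed how many members passed an unadjusted p of 0.05. The 9 log2 fold changes were fitted in 19 further ways, and each lay above 0 in all of them, except Gpx3 and Sod2 with Malat1 as a covariate. No member passed an adjusted p of 0.05 in any of them. With the library size as a covariate the median was 0.15. Sod3 then went from 0.36 to 0.14, Prdx5 from 0.32 to 0.09, Gpx1 from 0.35 to 0.22, Gpx3 from 0.28 to 0.16, Prdx3 from 0.14 to 0.07 and Sod2 from 0.16 to 0.00058. Total counts were 1562600 ± 588600 in control and 2503000 ± 737610 in rilmenidine libraries (exact permutation p = 0.0667, adjusted p = 0.279). A fit with library size may therefore also take away part of any difference between the diets.

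**Figure D5:**
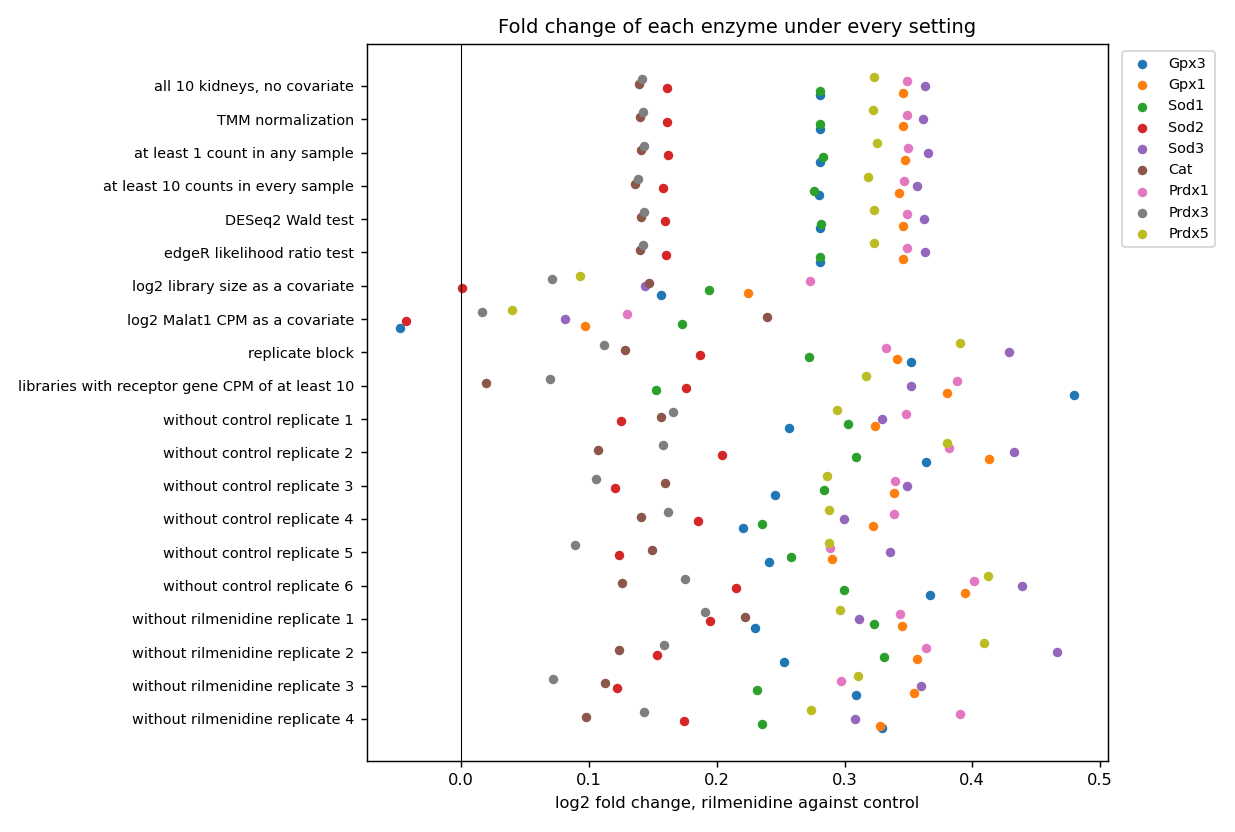
Log2 fold change of rilmenidine against control (horizontal axis) for each of the 9 tested enzymes, by colour, with 1 row for the fit to all 10 kidneys without covariate and 1 for each other setting. Gpx3 and Sod2 lie below 0 with Malat1 as a covariate, at -0.05 and -0.04, and all other points lie above 0.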

How the data were processed

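RNA was sequenced from 10 kidneys, 6 control and 4 rilmenidine, grouped by their labels. The study's methods give 8 control kidneys, whereas the labels and the counts used here hold 6, and all of these were analysed. The authors deposited raw read counts for Ensembl genes, made with Trimmomatic 0.32 for trimming, STAR 2.5.2b for alignment and featureCounts 1.5 for counting. The submitters' processing notes also name bcl2fastq 1.8.4 and the mm10 build. The annotation release, strand setting and handling of molecular identifiers are not given in the sources used here. If duplicates were not collapsed, counts overstate molecules, and without a known strand setting overlapping and near-identical genes are uncertain. Of the 43629 genes, 42548 were found in GENCODE M21 (GRCm38).

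A gene was tested if 66.6% or more of the samples had 6 or more reads on it (10055 genes). Counts were RLE-scaled, and edgeR 4.0.16 under R 4.3.3 fitted all kidneys with its quasi-likelihood test and no covariate. P-values were adjusted by Benjamini-Hochberg over all genes tested. Single values of the libraries were compared by two-sided exact permutation tests over 210 splits, whose smallest p is 0.00476. Log2 levels use a prior count of 2. DESeq2 1.42.0 and other settings served as alternatives. The quasi-likelihood, likelihood ratio, DESeq2 and library size covariate fits were tested on simulated data, where they called large changes but none of the size of the members' fold changes. The changed genes were drawn at random from all genes tested and were not matched to the members in level. The block and Malat1 fits were not tested this way. Transcript ends were compared with BLAST 2.17.0 (at least 95% identity over at least 100 of the last 300 bases). Every pair of libraries differed by more than counting noise.

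The members, the related lists and the marker lists were chosen with earlier results of these data known. Named were all members, of each related list of the pathway the highest, the lowest and every gene with an unadjusted p under 0.05, the 3 genes most like Gpx3, and Malat1. Other genes named as examples were chosen after their values were seen. Total counts of 863605 to 3232063 limit the precision for low genes such as Gpx4.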

Additional observations from a re-analysis of the deposited data

Results flagged for a closer look

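Among the 46 groups of values examined for 1 kidney far from the rest of its group, 4 stood out, and chance alone gives about 1 in 20. Gpx4 stood at 6.65 CPM in control kidney 1, the smallest library, where it rests on 6 counts, while the other control kidneys lay between 0.592 and 1.92 CPM. The endothelial markers summed to 143 CPM in control kidney 3 and to between 222 and 263 CPM in the other control kidneys. Control kidney 2 stood apart for the immune cell list and for the red blood cell list. Its immune cell markers summed to 191.7 CPM, against 40.2 to 86.6 CPM in the other control kidneys, and its red blood cell markers to 8692 CPM, against 968 to 3203 CPM. Control kidney 2 is also 1 of the 2 control kidneys with a high total of the clearing enzymes. Without it the log2 fold change of Gpx3 was 0.36 and that of Gpx1 0.41.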

How the results depend on the processing

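The direction held for 169 fits of a single enzyme under the alternatives. That none passed the adjusted threshold shows no stability, since changes of this size were not called in the simulated data either. The 2 exceptions were Gpx3 (-0.048) and Sod2 (-0.043) with Malat1 as a covariate, which also brought the median of the members from 0.28 to 0.081. The 4 members with an unadjusted p under 0.05 (10.6% of all genes) became 0 with edgeR's likelihood ratio test (9.87%), 0 with library size as a covariate (4.30%) and 0 with Malat1 as a covariate (3.03%). DESeq2 gave 5 (9.80%), with Prdx5 added, and the filter of at least 1 count gave 4 (7.38%), with Prdx5 in the place of Sod1. Among libraries whose olfactory and vomeronasal receptor genes summed to 10 CPM or more, which leave out control kidney 6 and rilmenidine kidneys 3 and 4, all 4 lost the call and 1 other, Gpx3, gained it (10.6%). In these libraries the log2 fold changes of Gpx1, Prdx1 and Sod3 were 0.38, 0.39 and 0.35, beside 0.35, 0.35 and 0.36 in all kidneys. That of Sod1 was 0.15 beside 0.28. Leaving out 1 kidney gave 1 to 6 members. There were 6 without control kidney 2 (13.5% of all genes) or 6 (14.4%), where Gpx3 and Prdx5 joined the 4, and 5 without rilmenidine kidney 2 (12.1%). There were 2 without control kidney 1 (9.40%) or 3 (8.52%) or rilmenidine kidney 1 (8.14%), and 1 without control kidney 4 (8.05%) or 5 (7.29%) or rilmenidine kidney 3 (7.64%) or 4 (9.49%). With 1 kidney left out the median ran from 0.24 to 0.37 and the share of counts on Gpx3 in control kidneys from 0.631% to 0.697%. The number of genes of the whole table passing an adjusted p of 0.05, 0 in edgeR's quasi-likelihood test with 1061 at an unadjusted p under 0.05, was 241 with every gene of at least 1 count, 60 with DESeq2, 44 with the likelihood ratio test and 0 to 37 with 1 kidney left out, with 33 without control kidney 2, 37 without control kidney 6 and 6 without rilmenidine kidney 1, and no enzyme was among them. Single values also moved by more than 1.5 times beside those with Malat1 or library size as a covariate given above, with Prdx3 at 0.072 without rilmenidine kidney 3 and 0.089 without control kidney 5, Cat at 0.22 without rilmenidine kidney 1, and in the receptor gene libraries Cat at 0.019, Prdx3 at 0.070, Sod1 at 0.15 and Gpx3 at 0.48. The order of levels without length differs from that per kb in 6 places.

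Replicate numbers 1 to 4 occur in both groups, but the labels do not say that they mark a shared litter or day, and the correlations of same-numbered kidneys were 0.0762, 0.0775, -0.0768 and -0.00704. With the replicate number as a block 3 genes passed and 1 member, Sod3, had an unadjusted p under 0.05 (9.12% of all genes). Numbers 5 and 6 occur in the control group only, so those kidneys carry no information on the diet in that fit.

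The 95% interval of Gpx3 spans -0.09 to 0.65 on the log2 scale, and Gpx4 had too few counts to be tested. The causes of the changes between settings were not tested.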
